A study of Mus musculus with 6 samples.

Results

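The p53 regulators and target genes are 32 named genes, picked by symbol from the 55860 genes of the deposited count and FPKM tables. They are the gene of p53 itself (Trp53), its relative Trp73, 3 negative regulators, and 27 genes that p53 is known to switch on. The targets were grouped by what they do: 8 in cell cycle arrest, 5 in DNA repair, 10 in cell death and 4 in metabolism and secreted stress signals. All 32 symbols were found once in the tables, and 31 had enough reads to be tested. Trp73 had 2 reads in all Il22r+/+ libraries together and 2 in all Il22r-/- libraries.

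The RNA came from granulosa cells of mouse ovary, the somatic cells that surround the oocyte and make steroid hormones. The groups were Il22r+/+, with an intact gene for the receptor of the cytokine interleukin-22, and Il22r-/-, in which both copies are disrupted. Each had 3 libraries, and cells of both groups were kept for 12 h in medium with 10% fetal bovine serum before RNA was taken. The full receptor symbol, the deleted part of the gene, the strain, the age and the number of animals per library are not stated in the labels. No agent that damages DNA is named for either group.

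The transcription factor p53 is made all the time and destroyed quickly, because its own target Mdm2 marks it for breakdown and the related Mdm4 blocks it. Damaged DNA, blocked ribosomes or other stress release it from both, so p53 activity is set mostly at the level of the protein. Active p53 raises genes that stop the cell cycle, repair DNA, adjust metabolism or kill the cell, and its target p21 (Cdkn1a) lets the DREAM complex silence genes of cell division. In the ovary, loss of granulosa cells by apoptosis is part of follicle atresia. Protein and p53 activity were not measured here.

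Most of the p53 targets among the members had lower transcript levels in Il22r-/- cells, while the transcript of p53 itself was higher. Of the 31 tested members, 18 fell and 3 rose, and the remaining 10 missed the threshold, an adjusted p of 0.05 in edgeR's quasi-likelihood fit. Among all 15227 tested genes, 45.7% were called, 22.1% as lower and 23.6% as higher. The median log2 change of the tested members, Il22r-/- minus Il22r+/+, was -0.51, beside 0.03 over all tested genes. The log2 changes of the members ran from -2.65 for Rprm to 0.51 for Mdm4. At least 2-fold lower were 7 members, against 6.3% of all tested genes, and none was 2-fold higher, against 8.03%. In 23 members the CPM ranges of the genotypes did not overlap, with Il22r-/- lower in 19 and higher in 4. The same held for 56% of all tested genes, 27.3% lower and 28.7% higher. In RNA from many cells together, fewer cells of a type and less RNA per cell cannot be told apart.

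**Figure D1:**
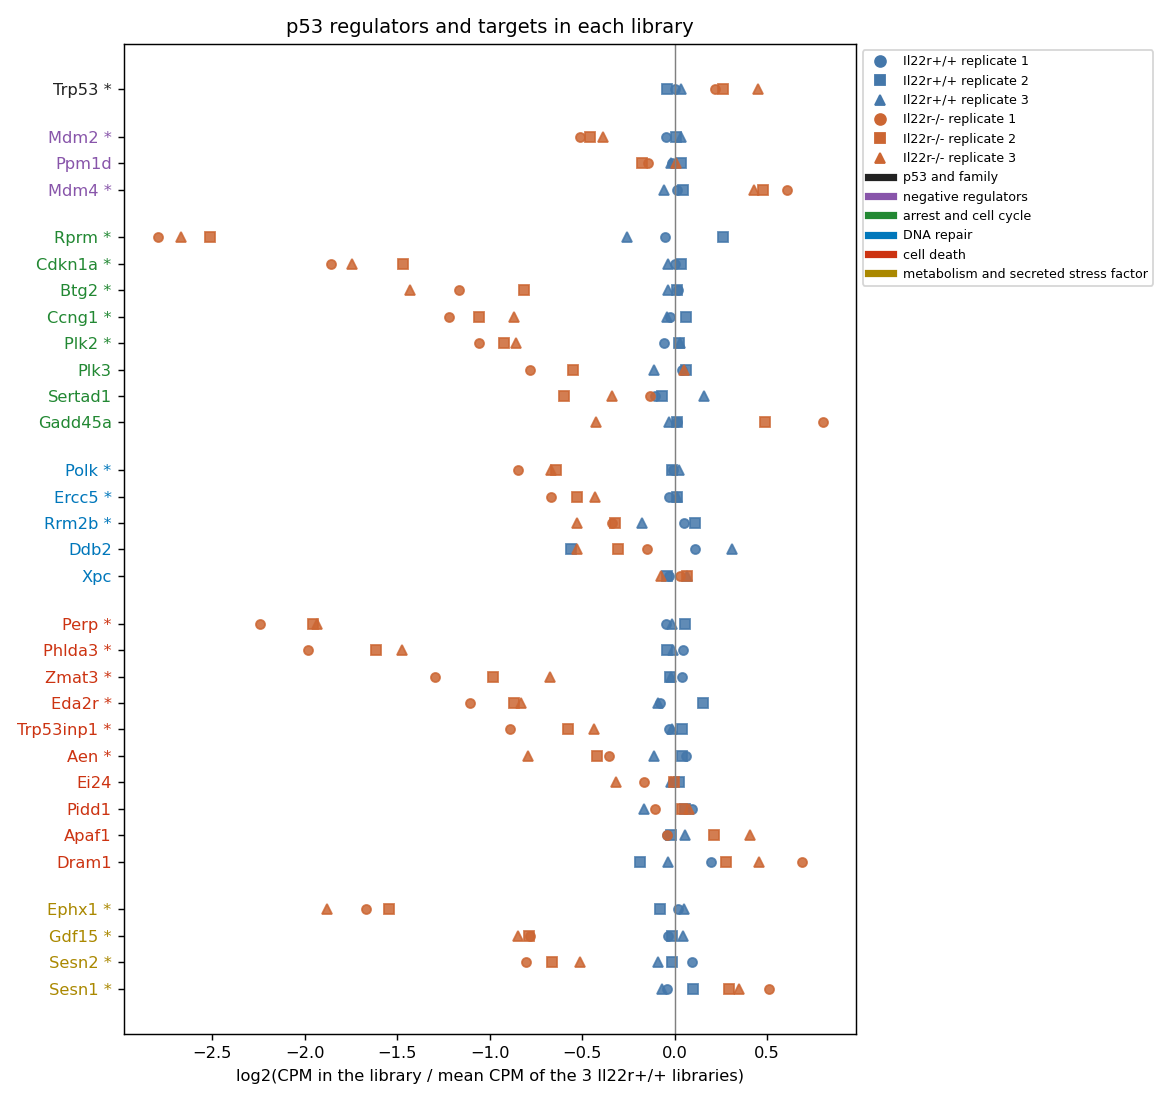
Each of the 31 tested members is plotted by library as the log2 ratio of its CPM to the mean of the 3 Il22r+/+ libraries (blue, Il22r+/+; orange, Il22r-/-; circle, square and triangle, replicates 1, 2 and 3). Names are coloured by role and a star marks the 21 members that passed the edgeR test; 18 of these lie to the left, led by Rprm, Perp, Ephx1, Cdkn1a and Phlda3, and Trp53, Mdm4 and Sesn1 lie to the right.

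The libraries held 14.9 M to 18.1 M counted reads (M, mega), and the first principal component, with 93.4% of the variance over the top 500 genes by variance, separated the genotypes. Il22r-/- replicate 3 had the fewest reads and stood apart on the second component (score -8.26, against -0.27 to 5.66 in the other 5). The members varied more among Il22r-/- libraries, with a median coefficient of variation of 10.9% against 3.65% in Il22r+/+. Over all tested genes replicates also differed more in Il22r-/- by another measure, chi-square per gene between replicate pairs. It was 10.2 to 27.0 in Il22r-/- and 4.66 to 6.63 in Il22r+/+. The coefficient of variation was not computed over all tested genes, so the size of the members' spread was not compared with theirs. Markers of other cell types moved with genotype as well, while 45.7% of all tested genes were called, 22.1% as lower and 23.6% as higher. Of 9 tested macrophage markers 8 rose (summed level 10.6 to 12.9 CPM in Il22r+/+ and 28.9 to 82.1 CPM in Il22r-/-). Of 9 markers of the ovarian surface and mesothelium 6 fell, from 549 to 556 CPM down to 182 to 196 CPM. Of 6 tested markers of theca and stroma 1 rose, 2 fell and 3 did not pass, so 50% were called, near the share of all tested genes. Dcn (mean 243 to 10.6 CPM) and Col3a1 (300 to 107 CPM) fell, and Col1a2 rose (1.61 to 61.3 CPM). The summed level of this list was 681 to 703 CPM in Il22r+/+ and 226 to 385 CPM in Il22r-/-. Of 6 smooth muscle markers 4 rose and 1 fell (267 to 322 and 357 to 577 CPM). Of 3 tested endothelial markers 2 rose and 1 fell, and of 2 tested oocyte markers none was called. Endothelial markers summed to at most 7.63 CPM and oocyte markers to at most 2.94 CPM in any library. No listed marker was at 0 in all 6 libraries. Of 9 tested granulosa markers 5 rose (Fshr, Nr5a2, Amhr2, Cyp11a1 and Inhba) and 2 fell (Foxl2 and Nr5a1), with summed levels of 5795 to 6548 CPM in Il22r+/+ and 7479 to 8147 CPM in Il22r-/-. The rises ran from 1.62-fold for Inhba to 22.7-fold for Fshr, which had 0.257 and 5.99 CPM. Amh (0.119 and 0.736 CPM) and Cyp19a1 (0.709 and 0.0219 CPM) were near 0 and not tested. The part of these other cells in the values of the p53 genes was not tested.

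Trp53 (ENSMUSG00000059552, mm10 chromosome 11, 69580359 to 69591873) had 106, 103 and 109 CPM (counts per M reads after normalisation) in Il22r+/+ replicates 1 to 3 and 124, 127 and 145 CPM in Il22r-/-. Every Il22r-/- library lay above every Il22r+/+ library, and the rise was 1.24-fold (log2 change 0.31 ± 0.08, SE, edgeR adjusted p = 0.00829). It did not pass in limma on log2(FPKM + 1) with no filter on low values (limma adjusted p = 0.0617, the highest over 16 alternatives, in which the lowest was 0.00105). Trp73, which encodes the relative p73, was detected at 0, 0 and 2 reads and at 1, 1 and 0 reads. Its pooled level was 0.038 CPM in Il22r+/+ (exact 95% interval 0.0046 to 0.137) and 0.0391 CPM in Il22r-/- (0.00473 to 0.141), so a difference was not detectable at this depth.

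Among the 3 negative regulators, one fell, one rose and one did not pass. Mdm2, the ubiquitin ligase that is both a target of p53 and its main inhibitor, had 186, 193 and 197 CPM in Il22r+/+ and 135, 140.1 and 147 CPM in Il22r-/-. The genotypes did not overlap, and Mdm2 fell 1.37-fold (log2 change -0.45 ± 0.07, edgeR adjusted p = 0.000513). Mdm4, which binds p53 and blocks its activity without destroying it, went the other way, from 121 ± 4.39 to 172 ± 11.1 CPM (SD, n = 3; log2 change 0.51 ± 0.08, edgeR adjusted p = 0.000351). Ppm1d, the phosphatase that removes activating phosphates from p53 and its kinases, had 19.99 ± 0.418 and 18.6 ± 1.31 CPM, which overlapped (edgeR adjusted p = 0.439).

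Mdm2 and Mdm4 were also set against Trp53 and each other within each library. On the deposited FPKM scale, which divides by gene length, the ratio of Mdm2 to Trp53 was 1.39, 1.48 and 1.44 in Il22r+/+ and 0.867, 0.876 and 0.806 in Il22r-/-. Mdm2 to Mdm4 was 4.64 ± 0.265 in Il22r+/+ and 2.40 ± 0.25 in Il22r-/-. Neither ratio overlapped between the genotypes, and for each the two-sided exact permutation test over 3 against 3 libraries gave p = 0.1, the smallest it allows (adjusted over 3 ratios, 0.15). The ratio of Mdm4 to Trp53, 0.311 ± 0.0191 and 0.358 ± 0.0501, overlapped (exact permutation p = 0.3). These ratios were chosen after the values were seen. The gene length is that of all annotated exons together, 5083 bases for Mdm2 and 14798 bases for Mdm4. The size of each ratio depends on these lengths, while its fold change between the genotypes does not.

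The arrest genes held 4 of the 7 members that fell at least 2-fold. Of the 8 genes, 5 fell, none rose and 3 did not pass, with a median log2 change of -0.99. Among all tested genes 22.1% fell and 23.6% rose. Cdkn1a (ENSMUSG00000023067, chromosome 17, 29090976 to 29100727), which encodes the cyclin-dependent kinase inhibitor p21, had 566, 578 and 550.2 CPM in Il22r+/+ and 155, 204 and 168 CPM in Il22r-/-. The lowest Il22r+/+ library was far above the highest Il22r-/- library, and the fall was 3.21-fold (log2 change -1.68 ± 0.10, edgeR adjusted p = 1.14e-06). Rprm, whose product Reprimo holds cells before mitosis, had 19.4, 24.0 and 16.8 CPM against 2.89, 3.52 and 3.15 CPM. This 6.29-fold fall was the largest among the members (log2 change -2.65 ± 0.17, edgeR adjusted p = 1.58e-06).

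Cyclin G1, encoded by Ccng1, guides a phosphatase to Mdm2 and is among the genes most regularly raised by p53. Ccng1 (ENSMUSG00000020326, chromosome 11, 40748552 to 40755311) had 477, 507 and 472 CPM in Il22r+/+ and 208, 233 and 265 CPM in Il22r-/- (2.06-fold lower, edgeR adjusted p = 1.67e-05). Btg2, an antiproliferative gene that recruits the machinery shortening mRNA tails, had 146, 145 and 140.4 CPM against 63.9, 81.7 and 53.3 CPM. Its 2.16-fold fall came with a wide spread in Il22r-/- (edgeR adjusted p = 0.000143). Plk2, a polo-like kinase of the stress response, fell 1.92-fold from 52.9 ± 1.71 CPM.

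Of the arrest genes that did not pass, Sertad1, a regulator of cyclin-dependent kinase and E2F, had 23.2 ± 2.39 and 18.3 ± 2.93 CPM. Its libraries did not overlap, and its edgeR adjusted p of 0.0607 passed under 5 of the 16 alternatives (from 0.0176 up to 0.213 over them), including without Il22r-/- replicate 1 or replicate 3. For 2 other genes, shown by library after their values were seen, one library decided the call. Gadd45a, a growth arrest gene that also acts in repair, had 44.9, 44.9 and 43.5 CPM in Il22r+/+ and 77.6, 62.5 and 33.0 CPM in Il22r-/-, so Il22r-/- replicates lay on both sides of Il22r+/+. Its edgeR adjusted p was 0.329, and without Il22r-/- replicate 3 it was 4.19e-05 with a log2 change of 0.64 (the highest adjusted p over the alternatives was 0.798). Plk3, a stress kinase of the same family as Plk2, had 12.3, 12.5 and 11.1 CPM against 6.98, 8.22 and 12.4 CPM. Its edgeR adjusted p was 0.135, and 0.00222 without Il22r-/- replicate 3 (up to 0.355 over the alternatives). On the other strand, E230016M11Rik overlaps 19.1% of the exon length of Gadd45a, AC167363.2 7.68% of that of Cdkn1a and Tctex1d4 3.32% of that of Plk3. The sources used here do not give the strand setting of the counting.

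**Figure D2:**
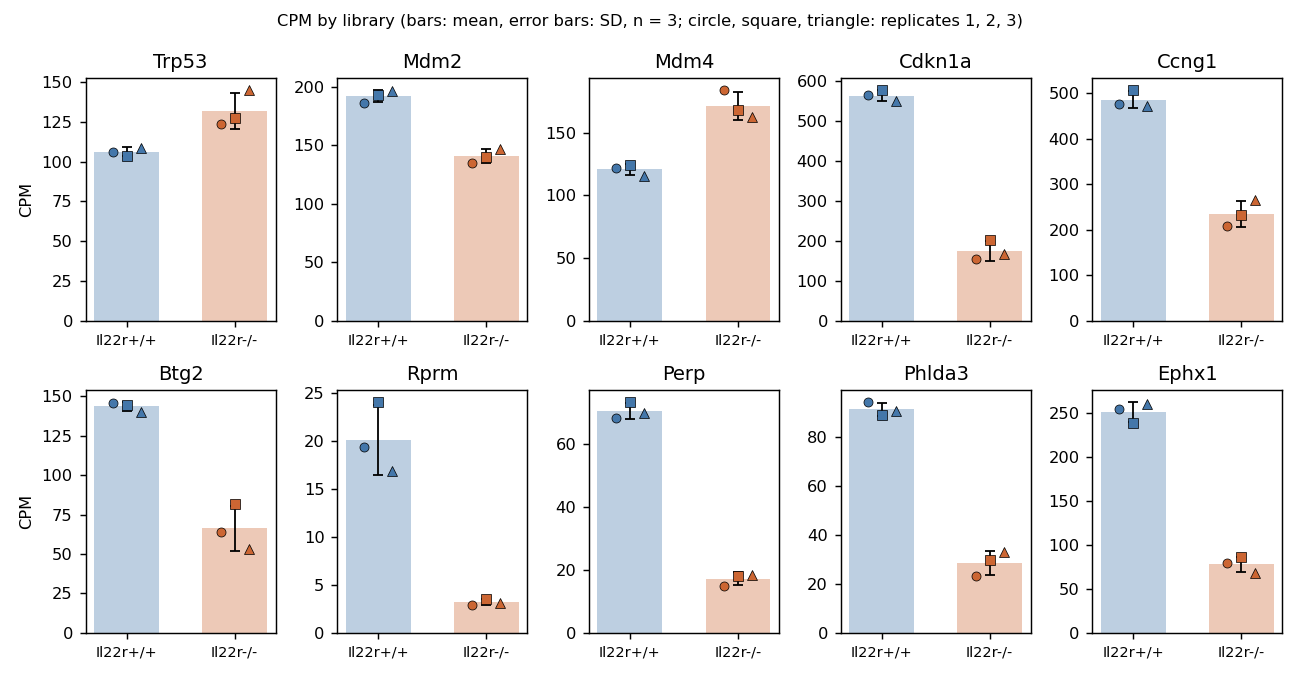
CPM of 10 members in each library (vertical axes from 0; bars, mean; error bars, SD, n = 3; circle, square and triangle, replicates 1, 2 and 3). Trp53 and Mdm4 were higher in all 3 Il22r-/- libraries than in any Il22r+/+ library, and the other 8 genes were lower, from 1.37-fold for Mdm2 to 6.29-fold for Rprm.

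Sequences near the start sites were searched for the site that p53 binds, a choice made after the values were seen. A p53 site is built from a pair of 10-base consensus decamers, each with the letters CNNG at its centre. The RefSeq promoter windows (GRCm38.p6, the same assembly as mm10, 250 bases before to 50 after a start) covered 26 of the 32 members. They were searched for 2 adjoining decamers with CNNG kept and at most 3 mismatches to the consensus in 20 bases. The decamer reads the same on both strands. A match was found in 6 of the 26 members (23.1%) and in 1.63% of all 27025 gene symbols in the table (1.38% of windows). The members were picked as known p53 targets, or as p53, its relative and its regulators, so this is a description of them. The 6 matches are shown because their genes moved in different directions, with capitals for bases that fit the consensus and lower case for those that do not.
Cdkn1a: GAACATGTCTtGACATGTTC
Ccng1: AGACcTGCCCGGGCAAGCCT
Aen: GGGCTTGTCCGGGCAAGgag
Sesn1: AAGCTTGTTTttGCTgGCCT
Trp53: GGACTTGCCCttACTTGTTa
Trp73: GGGCAAGCTgAGGCcTGCCC
The site of Cdkn1a (chr17:29090928-29090947, plus strand) begins 51 bases before the more upstream of 2 start sites, which lie 2790 bases apart. That of Ccng1 (chr11:40755462-40755481, minus strand) begins 195 bases before the start. Both have 1 mismatch, a limit that 0.0814% of all symbols met, and both genes fell. Aen, Sesn1 and Trp53 have 3 mismatches each. Aen (chr7:78895937-78895956) also fell, whereas Sesn1 (chr10:41887266-41887285) and Trp53 (chr11:69580284-69580303) rose. The site of Aen begins 10 bases after one start of the gene and 121 bases before the other. Trp73 (chr4:154097220-154097239, 2 mismatches) was too low to test. The sites of Sesn1 and Trp73 lie at the more downstream of 2 starts of the gene, 76865 and 42702 bases from the other. The 250 bases before the start are given for the pair with the closest matches, with the site in capitals.
Cdkn1a: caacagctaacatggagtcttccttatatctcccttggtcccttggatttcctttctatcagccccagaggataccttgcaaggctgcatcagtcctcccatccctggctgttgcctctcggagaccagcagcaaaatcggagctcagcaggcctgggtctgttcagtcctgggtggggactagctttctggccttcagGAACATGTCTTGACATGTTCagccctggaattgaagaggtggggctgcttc
Ccng1: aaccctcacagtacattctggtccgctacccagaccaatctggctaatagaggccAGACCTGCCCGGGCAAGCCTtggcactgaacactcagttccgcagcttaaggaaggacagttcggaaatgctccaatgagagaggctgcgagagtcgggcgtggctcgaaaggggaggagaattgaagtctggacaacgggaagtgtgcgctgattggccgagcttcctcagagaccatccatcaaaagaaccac
These windows are chr17:29090729-29090978 on the plus strand and chr11:40755287-40755536 on the minus strand. The counts are sums over all transcripts of a gene and do not show which start was used.

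Of the 5 DNA repair genes 3 fell and 2 did not pass, with a median log2 change of -0.39. Among all tested genes 22.1% fell. Polk, a DNA polymerase that copies past damaged bases, fell from 49.8 ± 0.672 to 30.3 ± 2.31 CPM (1.64-fold, edgeR adjusted p = 7.98e-05). Ercc5, the endonuclease that cuts beside a lesion in nucleotide excision repair, fell from 48.6 ± 0.847 to 33.5 ± 2.79 CPM (1.45-fold, edgeR adjusted p = 0.000557). Rrm2b, the ribonucleotide reductase subunit that supplies deoxynucleotides outside S phase, fell from 38.2 ± 3.91 to 29.1 ± 2.26 CPM (edgeR adjusted p = 0.011). Its call ended without Il22r+/+ replicate 1 (edgeR adjusted p = 0.05003) and without Il22r+/+ replicate 2 (0.0535, the highest over the alternatives, the lowest being 0.00179). The antisense gene Gm49085 overlaps 8.04% of its exon length.

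The damage sensors of the same repair pathway did not pass. Xpc, which recognises distorted DNA, had 51.4, 51.0 and 55.1 CPM in Il22r+/+ and 53.7, 54.9 and 49.9 CPM in Il22r-/-. Its log2 change of 0.01 ± 0.08 was below 0 under 9 of the 16 alternatives, none of which passed. Ddb2, which binds DNA damaged by ultraviolet light, had 6.06 ± 1.75 and 4.86 ± 0.63 CPM (edgeR adjusted p = 0.303), with the highest and the lowest library both in Il22r+/+. Acp2 overlaps 23.8% of the Ddb2 exon length on the other strand.

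Of the 10 cell death genes 6 fell, none rose and 4 did not pass, with a median log2 change of -0.57. Among all tested genes 22.1% fell and 23.6% rose. Perp (ENSMUSG00000019851, chromosome 10, 18845020 to 18857073), a membrane protein of desmosomes that also takes part in apoptosis, had 68.5, 73.5 and 70.0 CPM in Il22r+/+ and 14.9, 18.2 and 18.5 CPM in Il22r-/-. This was a 4.11-fold fall (log2 change -2.04 ± 0.10, edgeR adjusted p = 2.92e-07). Phlda3, which keeps the survival kinase AKT off the membrane, had 94.2, 88.9 and 90.7 CPM against 23.1, 29.8 and 32.8 CPM, a 3.2-fold fall (edgeR adjusted p = 2.25e-06). Neither gene had an Il22r-/- library near the Il22r+/+ range.

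Smaller falls were seen for 4 more death genes. Eda2r, a death receptor of the tumour necrosis factor family, fell 1.91-fold from 107 ± 10.4 CPM, and Zmat3, a zinc-finger protein that binds RNA, fell 1.95-fold from 227 ± 5.56 CPM. Trp53inp1, a nuclear cofactor of p53 in stressed cells, fell 1.54-fold from 422 ± 10.9 CPM, and Aen, a nuclease that degrades DNA in apoptosis, fell 1.42-fold from 93.5 ± 5.91 CPM. Their edgeR adjusted p-values lay between 3.37e-05 (Eda2r) and 0.00359 (Aen). Within Il22r-/- they did not move as one: Zmat3 had 92.4, 115 and 142 CPM in replicates 1 to 3, and Aen had 73.2, 69.8 and 54.0 CPM.

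The remaining 4 death genes did not pass. Apaf1, the scaffold of the apoptosome, had 73.3 ± 2.71 and 84.5 ± 13.01 CPM (log2 change 0.20 ± 0.10, edgeR adjusted p = 0.138). It passed as higher with library size alone (edgeR adjusted p = 0.0257) and without Il22r-/- replicate 1 (0.0182), in a range up to 0.463. Pidd1, the scaffold of the PIDDosome, had 18.0 ± 1.68 and 18.1 ± 1.21 CPM, and its sign turned under 8 alternatives. Ei24, an endoplasmic reticulum protein of autophagy, had 114 ± 1.92 and 103 ± 11.2 CPM (edgeR adjusted p = 0.163) and passed as lower only without Il22r-/- replicate 2 (0.0373, in a range up to 0.654). Gm26787 overlaps 6.66% of its exon length. Dram1, a lysosomal protein of autophagy, had 2.57, 1.97 and 2.19 CPM against 3.62, 2.72 and 3.09 CPM, without overlap but short of the threshold (log2 change 0.49 ± 0.24, edgeR adjusted p = 0.129).

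All 4 genes of metabolism and secreted stress signals changed, 3 lower and 1 higher, beside 45.7% of all tested genes called in either direction. Ephx1 (ENSMUSG00000038776, chromosome 1, 180976210 to 181020904), the microsomal epoxide hydrolase that detoxifies reactive epoxides, had 255, 239 and 261 CPM in Il22r+/+ and 79.2, 86.2 and 68.4 CPM in Il22r-/-. It fell 3.22-fold (log2 change -1.69 ± 0.09, edgeR adjusted p = 5.94e-07). The pseudogene Gm36961 overlaps 3.69% of the Ephx1 exon length on the same strand. Gdf15, a secreted factor of the TGF-beta family, fell from 9.11 ± 0.276 to 5.21 ± 0.136 CPM (1.74-fold, edgeR adjusted p = 0.00139).

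The 2 sestrins, stress proteins that restrain the growth kinase complex mTORC1, went in opposite directions. Sesn2 went from 93.6 ± 6.12 to 59.4 ± 6.03 CPM, a 1.58-fold fall (edgeR adjusted p = 0.000198). Sesn1 had 18.95, 20.8 and 18.6 CPM against 27.7, 23.9 and 24.8 CPM, a 1.31-fold rise (edgeR adjusted p = 0.0117). The rise of Sesn1 lost its call without Il22r+/+ replicate 1 (edgeR adjusted p = 0.0545), Il22r+/+ replicate 3 (0.0526) or Il22r-/- replicate 1 (0.0522), the lowest value over the alternatives being 0.00366.

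Levels were compared between members per gene length, as FPKM. This length covers all annotated exons of a gene, so the order of the members depends on it. In Il22r+/+, Cdkn1a came first at 163 ± 3.71 FPKM, followed by Ccng1 at 142 ± 5.199 FPKM and Ephx1 at 133 ± 6.36 FPKM. In Il22r-/-, Ccng1 came first at 67.7 ± 8.86 FPKM, and Cdkn1a followed at 49.9 ± 7.19 FPKM. Trp53 had 27.0 ± 0.743 FPKM and ranked 10 of 32 in Il22r+/+, and with 33.0 ± 3.14 FPKM it ranked 5 in Il22r-/-. Perp went from rank 8 to rank 19 and Rprm from rank 17 to rank 29. All 32 members together summed to 3526 to 3630 CPM per library in Il22r+/+ and 2010.4 to 2214 CPM in Il22r-/-.

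**Figure D3:**
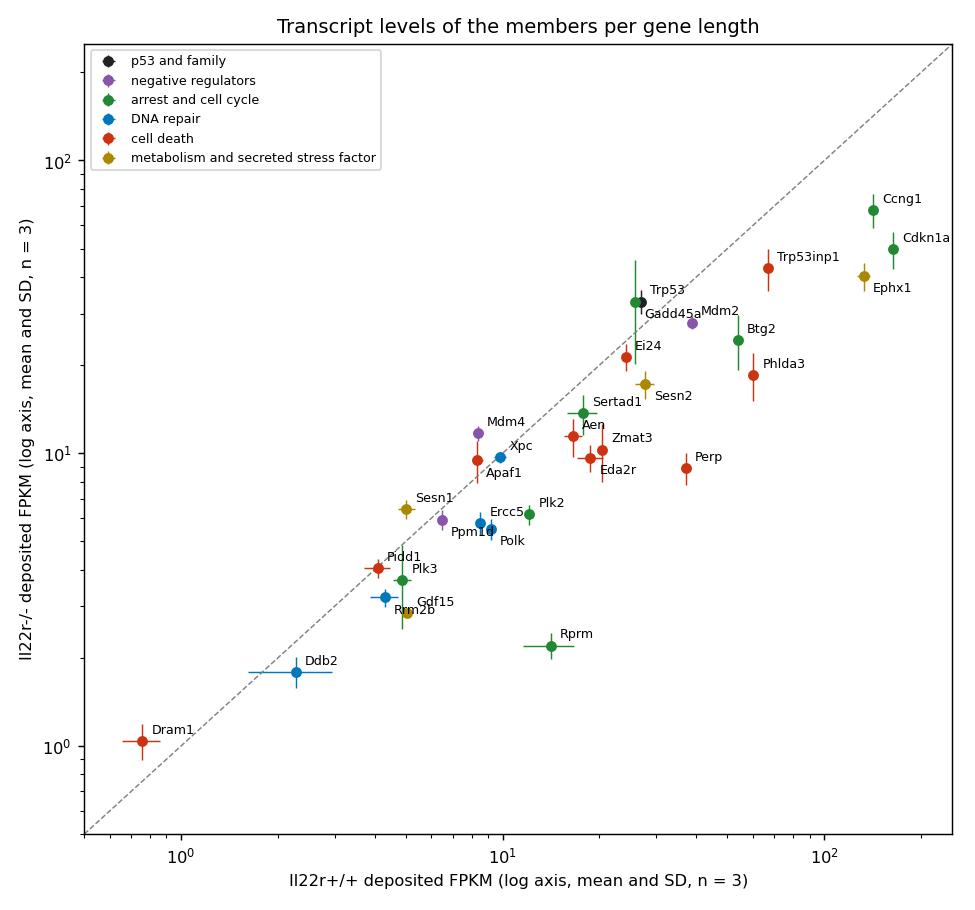
Deposited FPKM of the 31 tested members in Il22r+/+ (horizontal, log axis) and Il22r-/- (vertical, log axis), with points at the mean and error bars of 1 SD (n = 3). The dashed line marks equal levels; Cdkn1a, Ccng1 and Ephx1, the most abundant in Il22r+/+, lie below it, as do Perp and Rprm, while Trp53, Mdm4 and Sesn1 lie above it.

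Other genes around p53 were read from 5 lists drawn up from general knowledge. Beside them, 22.1% of all tested genes were called lower and 23.6% higher. Of 24 further direct targets, 23 were tested, of which 10 fell, 3 rose and 10 did not pass, with a median log2 change of -0.28. Among those that fell were Lif, the leukemia inhibitory factor (40.9 ± 1.05 to 7.74 ± 1.59 CPM), and Igfbp3, which binds insulin-like growth factors (8.33 ± 1.68 to 1.66 ± 0.739 CPM). Igfbp3 changed by -2.31 on the log2 scale in edgeR and by -1.28 in limma on log2(FPKM + 1). Those that rose, named after their values were seen, were Fdxr (mean 109 to 159 CPM), Steap3 (16.8 to 21.3 CPM) and Gls2 (0.396 to 1.09 CPM). Between 9 and 11 genes of this list fell under every alternative. The count that rose was 1 in limma on log2(FPKM + 1) with no filter, 1 without Il22r+/+ replicate 1, Il22r+/+ replicate 3 or Il22r-/- replicate 2, and 6 with library size alone. Sco2, a copper chaperone of cytochrome oxidase, was at 0 in every library.

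That list holds 5 further genes of cell death, singled out after their values were seen, of which 4 fell. In the whole list 10 of 23 tested genes fell, and among all tested genes 22.1% fell and 23.6% rose. Pmaip1, which encodes the BH3-only protein Noxa, fell 3.2-fold from 5.75 ± 0.727 to 1.81 ± 0.522 CPM (log2 change -1.68, edgeR adjusted p = 0.000423, and -0.93 in limma on log2(FPKM + 1)). Tnfrsf10b, a receptor for the death ligand TRAIL, fell 2.18-fold from 75.2 ± 5.72 CPM, and Bbc3, which encodes the BH3-only protein Puma, fell 1.44-fold from 30.04 ± 0.388 CPM. These 3 passed in all 16 alternatives. Bax, which opens the outer mitochondrial membrane, fell from 89.8 ± 6.98 to 73.96 ± 5.56 CPM (edgeR adjusted p = 0.0211). It passed in 11 of the 16 alternatives (adjusted p from 0.00896 to 0.125), and among those in which it did not were library size alone (0.125) and the fits without Il22r+/+ replicate 1 (0.0548) or replicate 3 (0.0965). Fas, the receptor of Fas ligand, had 2.13 ± 0.16 and 1.33 ± 0.723 CPM, which overlapped (edgeR adjusted p = 0.175), and it passed as lower without Il22r-/- replicate 2 (0.0263, in a range up to 0.435).

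Of 20 genes whose products act on p53, 9 rose, 4 fell and 7 did not pass, with a median log2 change of 0.14. The 4 that fell were 20% of the list, near the 22.1% called lower among all tested genes, of which 23.6% were called higher. Chek1, the checkpoint kinase, rose from 5.64 ± 1.12 to 11.3 ± 1.38 CPM, and Rpl5, a ribosomal protein that can hold Mdm2, rose from 363 ± 26.2 to 641 ± 91.9 CPM. Cdkn2a, which encodes the Mdm2 inhibitor ARF and the kinase inhibitor p16, fell from 2.57 ± 1.05 to 0.748 ± 0.152 CPM. The log2 change of Cdkn2a was -1.78, and -0.95 in limma on log2(FPKM + 1), where the pseudocount lowers the change of genes with low values. The number that rose was 4 in each limma fit on FPKM, 3 without Il22r+/+ replicate 1 and 4 without Il22r+/+ replicate 3 or Il22r-/- replicate 2. Without Il22r-/- replicate 3, 7 genes fell instead of 4.

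Cell cycle genes that p21 and DREAM are known to repress were higher in Il22r-/-, where Cdkn1a was lower. Whether these rises depend on Cdkn1a was not tested. Of 19 genes 18 rose and none fell, in all 16 alternatives as well, with a median log2 change of 1.11. Among all tested genes 23.6% rose. Mki67, the proliferation marker, rose 2.88-fold from 56.9 ± 6.11 CPM, Bub1, a spindle checkpoint kinase, 2.74-fold from 11.1 ± 1.73 CPM, and Birc5, which encodes survivin, 2.56-fold from 11.6 ± 1.83 CPM.

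Some members also answer to stress routes other than p53, so genes of those routes are given beside them. Sesn2 and Gdf15 are also targets of ATF4, the factor of the amino acid and endoplasmic reticulum stress response. Of 10 genes of that response 6 fell and 2 rose, as in each of the 16 alternatives, with a median of -0.46. Among all tested genes 22.1% fell and 23.6% rose. The largest changes were in Cebpb, a transcription factor (277 ± 44.9 to 99.9 ± 10.5 CPM), Atf5, a related factor (283 ± 11.7 to 117 ± 3.72 CPM), and Ddit4, an inhibitor of mTORC1 (40.0 ± 3.58 to 24.8 ± 5.25 CPM). Atf4 itself averaged 335 and 304 CPM, short of the threshold (edgeR adjusted p = 0.185).

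Btg2, Plk2, Plk3 and Sertad1 are also induced within minutes by growth factors, as immediate early genes are. Of 16 tested immediate early genes 8 fell and 4 rose, with a median of -0.19. Among all tested genes 22.1% fell and 23.6% rose. Klf2, a transcription factor of the Kruppel-like family, fell from 23.2 ± 1.30 to 9.94 ± 2.74 CPM, and Atf3, a stress-induced repressor, rose from 2.35 ± 0.644 to 5.46 ± 0.412 CPM. Fosb, an AP-1 subunit, rose from 2.35 ± 0.637 to 4.73 ± 1.98 CPM (edgeR adjusted p = 0.037). Fosb lost its call under 9 of 16 alternatives (adjusted p up to 0.216), among them without any one Il22r+/+ replicate or without Il22r-/- replicate 2 or 3. The number of genes that rose was 2 in each limma fit on FPKM, and 2 without Il22r+/+ replicate 1, Il22r+/+ replicate 2 or Il22r-/- replicate 2. Egr2 was at 0 in every library.

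**Figure D4:**
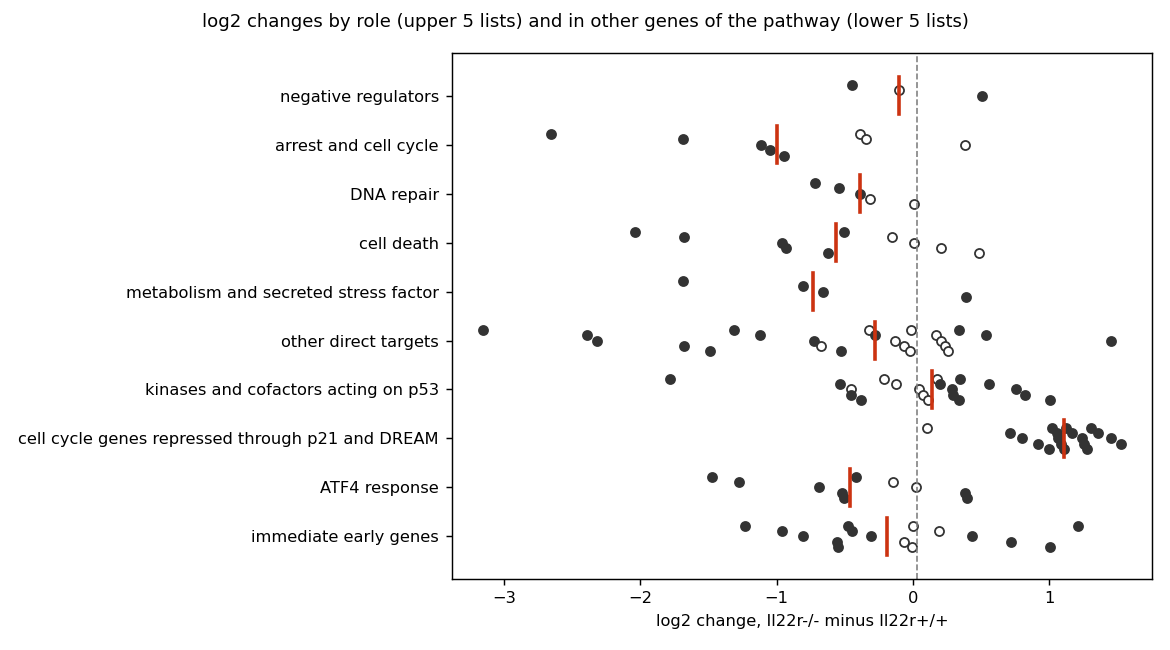
Log2 changes (Il22r-/- minus Il22r+/+) of each tested gene in the 5 role groups of the members (upper) and in 5 other lists (lower). Filled points passed the edgeR test, red bars are medians and the dashed line is the median of all tested genes (0.03); arrest genes have a median of -0.99 and the cell cycle genes repressed through p21 and DREAM one of 1.11.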

How the data were processed

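The authors deposited raw read counts per gene and FPKM values for 6 libraries. The submitters' processing notes name featureCounts 1.5.0-p3 and mm10. The sources used here do not give the aligner, annotation release or strand setting. The deposited counts, divided by gene length, and the deposited FPKM gave 1 constant per library, 0.936 to 1.05 times its count total. FPKM values were used for levels between genes and as an alternative.

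Counts were filtered with filterByExpr, scaled with TMM factors and tested with the robust quasi-likelihood fit of edgeR 4.0.16 (R 4.3.3), genotype being the only term, over 15227 genes with Benjamini-Hochberg adjustment and a threshold of 0.05. CPM values are TMM-scaled. The step was also run on simulated counts with the same dispersion for all genes and both genotypes. The libraries spread more in Il22r-/-, so that run does not show how the test behaves on these data. Alternatives were DESeq2 1.42.0, its size factors, library size alone, limma 3.58.1 (voom, and log2(FPKM + 1) or log2(FPKM + 0.1)), other filters, a replicate block and each library left out.

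The labels do not say whether libraries came from separate animals or cultures, so p-values measure only the spread between these libraries, which may be technical. Replicates differed by more than sampling noise (chi-square per gene 4.66 to 6.63 in Il22r+/+ and 10.2 to 27.0 in Il22r-/-). Exact intervals cover counting error only. Members and lists were chosen with earlier results of these data known. By the rule for named genes, all members are accounted for, with library values for Trp53, Mdm2, Cdkn1a and members changed at least 2-fold, and the 3 largest called changes of each other list are named, except 1 gene that is not reported here. Positions and exon overlaps came from GENCODE M21 (mm10), where all 32 members had the deposited positions, and promoters from RefSeq. Set tests were not used.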

Additional observations from a re-analysis of the deposited data

How the results depend on the processing

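Over 16 alternatives, 18 of the 21 called members kept their call and direction; the exceptions, Trp53, Sesn1 and Rrm2b, are given with their values in the report. Between 17 and 20 members fell and 2 to 4 rose. With library size alone the median log2 change of the members was -0.40, against -0.51, and the median of all tested genes was 0.13, against 0.03. In that fit 63.6% of all calls were higher, against 51.6%. Leaving out 1 library at a time, the median of the members ran from -0.62 (without Il22r-/- replicate 3) to -0.48, and 5411 to 8243 genes were called. The log2 change of Xpc turned from 0.0096 to -0.0076 with DESeq2 size factors, -0.0075 in DESeq2, -0.016 on log2(FPKM + 1) with or without the filter and -0.017 on log2(FPKM + 0.1), and ran from -0.032 to 0.041 with 1 library left out. That of Pidd1 turned from 0.0064 to -0.010 with DESeq2 size factors and in DESeq2, -0.013 on log2(FPKM + 1) with or without the filter and -0.016 on log2(FPKM + 0.1), and ran from -0.073 to 0.053 with 1 library left out. For these the cause was not tested.

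Replicate numbers did not pair the libraries: same-numbered libraries had correlations of their deviations of 0.04, -0.07 and -0.06, and not every library correlated best with its own number. With the replicate number as a block, 6405 genes were called against 6963, and 18 members fell and 3 rose, with a median of -0.52. Bax lost its call under the block (edgeR adjusted p = 0.0501). With 3 libraries a group, Trp73 (4 reads in all) could not be compared, and low members such as Dram1 and Ddb2 rest on few reads.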
